A study of Bos taurus with 3 samples.

Results

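The genes described here are HLA-DQA1 and BOLA-DQB, 2 of the 9154 bovine genes with a tag in at least 1 library of this series. They were chosen by the symbol that ends their description in the gene tables, each symbol has 1 accession, and both were picked because their levels had been seen to be higher in each later library. The choice therefore used their own values in all of the comparisons, and these values are given as a description, without a test. The files label HLA-DQA1 by the symbol of its human counterpart, and its description names it DQ alpha 5.

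Biopsies of mammary tissue came from 18 Holstein cows in their second parity. A first set of 6 cows was sampled 35 days before parturition (−35 d), a second set of 6 at 7 days before it (−7 d), and the last 6 at 3 days after it (+3 d). At −35 d the cows were dry, at −7 d they were in stage I of lactogenesis with pre-colostrum secretion, and at +3 d they were in stage II and produced colostrum. Each set was combined into 1 pool for RNA extraction, from which 1 digital gene expression (DGE) library was made. DGE counts tags of 21 bases, each starting at a site of the enzyme NlaIII in a transcript. Ideally a transcript gives 1 tag, from its last such site, whatever its length, but other sites can give tags too.

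MHC class II molecules are pairs of an alpha and a beta chain that carry peptides from the endosomes to the cell surface and show them to CD4 T cells. Dendritic cells, macrophages and B cells make them constantly, and epithelial cells, those of the mammary gland among them, can make them under interferon gamma. In cattle the classical class II molecules are DR and DQ. The DQ genes are highly polymorphic, some bovine haplotypes carry a single pair of DQ genes and others carry duplicated DQ alpha and DQ beta genes. By the RefSeq gene table of ARS-UCD2.0, consulted for names and order and not for coordinates, the genes BOLA-DQA2, BOLA-DQB, BOLA-DQA5, BOLA-DQB1 and LOC100848815 (a gene with DQ alpha synonyms) follow each other directly, and BOLA-DRB3 comes next. HLA-DQA1 of the files is BOLA-DQA5 there, so that HLA-DQA1 and BOLA-DQB are next to each other. BLA-DQB of the files, a second DQ beta gene, is BOLA-DQB1 there. BOLA-DQA2 of this series was not matched to ARS-UCD2.0, so whether it is the BOLA-DQA2 there is not known here.

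The number of clean tags was 5914422 in the −35 d library, 5593237 in the −7 d library and 5845821 in the +3 d library. TPM is the count of a gene scaled to the clean tags of its library, and 1 tag is worth 0.169, 0.179 and 0.171 TPM in these libraries. Intervals below are 95% intervals of counting error alone. They say nothing of the spread among cows, because each time point has 1 pool. PCR copies of a tag could not be told from tags of separate molecules, so the counts and intervals take every copy as separate. The pools also held different cows, so the time point and the DQ alleles and gene numbers that the cows carried cannot be told apart. In bulk tissue, moreover, fewer cells of a type and less RNA per cell cannot be told apart. Below, the stage I comparison sets −7 d against −35 d, the stage II comparison sets +3 d against −7 d, and the full comparison sets +3 d against −35 d.

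HLA-DQA1, the alpha chain, had 18 tags in the dry gland (−35 d), 64 at −7 d and 439 at +3 d. These are levels of 3.04 TPM (exact Poisson interval 1.80 to 4.81), 11.44 TPM (8.81 to 14.6) and 75.10 TPM (68.2 to 82.5). The gene was chosen for this order of levels, so the intervals give counting error and are no test of the order. The level was 3.76-fold higher at −7 d than at −35 d (interval of the ratio 2.20 to 6.74), and 6.56-fold higher at +3 d than at −7 d (5.04 to 8.67). From −35 d to +3 d the ratio was 24.7 (15.4 to 42.0). The ratio across parturition was the larger one for this gene, but its interval overlapped that of the earlier step.

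BOLA-DQB, the beta chain, had 3 tags in the dry gland, 78 at −7 d and 188 at +3 d. Its levels were 0.51 TPM (0.105 to 1.48), 13.95 TPM (11.02 to 17.4) and 32.16 TPM (27.7 to 37.1). The order was the same as for HLA-DQA1, and this gene too was chosen for it. For this gene the larger step came before parturition. The ratio of −7 d to −35 d was 27.5, with a wide interval of 9.07 to 136 because it rests on 3 tags. Distinct tags seen only 1 time had been removed from the libraries before counting. The level was 2.31-fold higher at +3 d than at −7 d (1.76 to 3.04), a ratio that rests on larger counts.

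**Figure D1:**
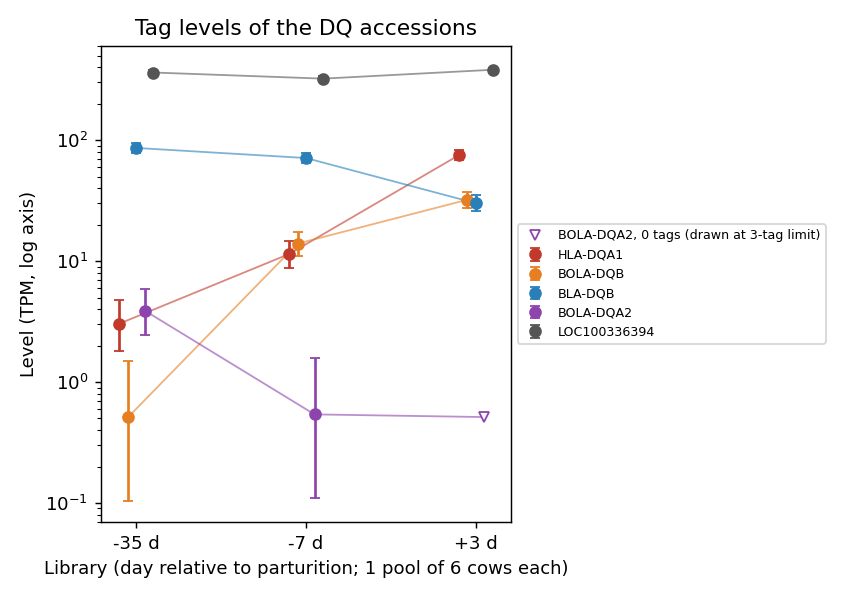
Level in TPM on a log axis against library for the 5 DQ accessions, with exact Poisson 95% intervals of counting error as bars and 1 pool of 6 cows per point. HLA-DQA1 and BOLA-DQB are higher in each later library, from 3.04 to 75.10 TPM and from 0.51 to 32.16 TPM, BLA-DQB is lower at 30.11 TPM at +3 d, LOC100336394 lies between 322.71 and 382.15 TPM, and BOLA-DQA2, with 0 tags at +3 d, is drawn there as an open triangle at the limit of 3 tags.

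HLA-DQA1 and BOLA-DQB did not keep 1 ratio to each other. Whether their chains pair with each other cannot be read from these data. Of the tags on both genes, HLA-DQA1 had 18 of 21 at −35 d (85.7%, Wilson interval 65.4% to 95.02%), 64 of 142 at −7 d (45.1%, 37.1% to 53.3%) and 439 of 627 at +3 d (70.0%, 66.3% to 73.5%). The interval at −7 d lay below both others. Both genes were chosen by their values and the share at −35 d rests on 3 tags of BOLA-DQB, so this is no test. Summed, both genes had 3.55 TPM at −35 d, 25.39 TPM at −7 d and 107.26 TPM at +3 d.

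Log2 ratios, with 0.5 tags added to each count, were ranked from the highest among the 5902 genes whose TPM averaged 5 or more. HLA-DQA1 ranked 49 in the stage I comparison (log2 ratio 1.88), 24 in stage II (2.70) and 15 in the full comparison (4.59). BOLA-DQB ranked 5 (4.57), 189 (1.20) and 12 (5.77). Both genes were chosen for higher levels in later libraries, so high ranks follow from the choice and nothing is read from them. The ranks of BOLA-DQB against −35 d also rest on 3 tags there.

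The other DQ accessions are described in turn. BLA-DQB, the second DQ beta gene, had 510 tags (86.23 TPM) at −35 d, 398 (71.16 TPM) at −7 d and 176 (30.11 TPM) at +3 d. It was the main DQ beta gene in the dry gland, and its level at +3 d was close to that of BOLA-DQB, with overlapping intervals. BOLA-DQA2, a DQ alpha gene, had few tags in every library. It had 23 tags (3.89 TPM) at −35 d, 3 (0.54 TPM) at −7 d and 0 at +3 d, where the limit that no tag sets is 3 tags, or 0.513 TPM. Against that limit the level at +3 d was at least 7.58-fold lower than at −35 d, and the 95% interval of the ratio, which takes in the counting error of both libraries, starts at 5.68-fold lower. Neither bound takes in distinct tags seen only 1 time, which had been removed before counting.

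The most abundant DQ accession was LOC100336394, a predicted transcript described as similar to the BOLA-DQA2 protein. It was on no gene list, and it and the sums that include it were added after its values were seen. It had 2145 tags (362.67 TPM) at −35 d, 1805 (322.71 TPM) at −7 d and 2234 (382.15 TPM) at +3 d. The ratio of +3 d to −35 d was 1.05 (interval 0.993 to 1.12). This depended on scaling: its log2 ratios of −0.17 in stage I, 0.24 in stage II and 0.08 in the full comparison were 0.02, 0.55 and 0.57 with TMM.

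Shares of tags within 1 library do not depend on how libraries are scaled, and they show how the accessions of a chain divided its tags. BOLA-DQB held 3 of 513 DQ beta tags at −35 d (0.585%, Wilson interval 0.199% to 1.71%). It held 78 of 476 at −7 d (16.4%, 13.3% to 20.0%) and 188 of 364 at +3 d (51.6%, 46.5% to 56.7%). BLA-DQB held the remainder, so that the 2 DQ beta accessions went from a library with nearly all tags on BLA-DQB to one with similar numbers on both.

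For DQ alpha, HLA-DQA1 held 18 of 2186 tags at −35 d (0.823%, 0.521% to 1.30%), 64 of 1872 at −7 d (3.42%, 2.69% to 4.34%) and 439 of 2673 at +3 d (16.4%, 15.1% to 17.9%). LOC100336394 held 98.1%, 96.4% and 83.6% of these tags in the same order. BOLA-DQA2 held 1.05% and 0.160% in the first 2 libraries and 0 of 2673 tags at +3 d. That allows a share of up to 0.112% by a limit of 3 tags, and of up to 0.144% by the Wilson interval. Here too, the removed tags seen only 1 time are left out of account. These shares rest on LOC100336394, which did not match a gene of ARS-UCD2.0, so that which DQ alpha gene it stands for is not known here. Without it, HLA-DQA1 held 43.9%, 95.5% and 100% of the remaining DQ alpha tags, 18 of 41, 64 of 67 and 439 of 439. HLA-DQA1 was thus below LOC100336394 in every library and above BOLA-DQA2 at −7 d and +3 d, with overlapping intervals of the levels at −35 d.

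**Figure D2:**
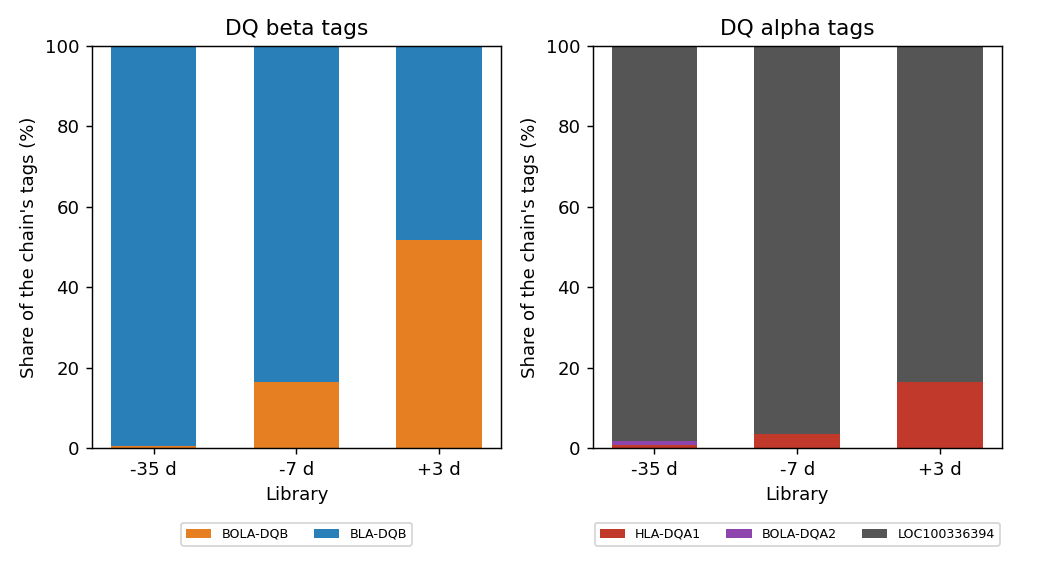
Share of the tags of each DQ chain in percent against library, stacked by accession, with DQ beta on the left and DQ alpha on the right. BOLA-DQB grows from 0.585% to 51.6% of the DQ beta tags and HLA-DQA1 from 0.823% to 16.4% of the DQ alpha tags.

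DQ tags were also summed by chain, and LOC100336394 supplied most of the DQ alpha tags in every library. DQ beta had 86.74 TPM at −35 d, 85.10 TPM at −7 d and 62.27 TPM at +3 d. DQ alpha had 369.61, 334.69 and 457.25 TPM. All DQ accessions together had 456.34, 419.79 and 519.52 TPM, a ratio of +3 d to −35 d of 1.14 (interval 1.08 to 1.20), whereas HLA-DQA1 and BOLA-DQB together differed by 30.2-fold (19.6 to 49.1). These sums include HLA-DQA1 and BOLA-DQB, which were chosen for being higher. Both together held 21 of 2699 DQ tags at −35 d and 627 of 3037 at +3 d. By clean tags the higher sum of all DQ at +3 d rests on them, so nothing is read from it. The direction of the sums depended on scaling. The log2 ratio of DQ beta in the full comparison was −0.48 by clean tags and 0.02 after TMM scaling by edgeR. That of all DQ was 0.19 by clean tags and 0.68 with TMM. In the stage I comparison, TMM turned the ratio of DQ beta from −0.03 to 0.16, that of DQ alpha from −0.14 to 0.05 and that of all DQ from −0.12 to 0.07.

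DQ genes of a chain resemble each other in sequence, so the split of tags between the accessions is uncertain. The authors matched tags with at most 1 mismatch and left out tags that matched several genes, so a tag common to DQ accessions is in none of the counts. A tag of an allele that differs from the reference may have been placed on another DQ accession or on none. The tags behind each DQ count could not be matched to transcripts here, so no tag sequence is given, and the part of allele content in the differences was not tested.

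The other class II genes were followed by a list of 32 symbols for class II chains and the invariant chain, of which 10 were found in the tables, HLA-DQA1 and BOLA-DQB among them. They were compared by the Audic-Claverie test of the study's methods, which compares libraries and not conditions. A gene was called at a false discovery rate (FDR, Benjamini-Hochberg over all genes tested) of at most 0.001 and a difference of at least 2-fold. In the stage I comparison 9.07% of all 8967 genes tested were called, 6.45% lower and 2.62% higher. In stage II 13.5% of 8784 genes were called, 10.4% lower and 3.12% higher. In the full comparison 18.6% of 8988 genes were called, 16.3% lower and 2.33% higher. The balance depended on scaling: in the full comparison 209 genes were called higher and 1463 lower by clean tags, and 560 (6.23%) and 444 (4.94%) with TMM. With TMM, 4.22% and 3.90% of genes were called higher and lower in stage I, and 5.87% and 4.90% in stage II.

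In the full comparison all 8 other class II genes of the list were called lower by clean tags, against 16.3% of all genes. With TMM 3 of the 8 were called lower (BOLA-DQA2, BLA-DQB and HLA-DMB), against 4.94% of all genes, and with edgeR's exact test at an assumed coefficient of variation of 0.2 only BOLA-DQA2 was. The 2 called higher were the ones chosen for being so, and nothing is read from their calls. HLA-DRA, the alpha chain of DR, had 831.36 TPM at −35 d, 413.36 TPM at −7 d and 305.52 TPM at +3 d, and was 2.72-fold lower at +3 d than at −35 d (interval 2.58 to 2.87). BoLA-DRB3, the main DR beta chain of cattle, had 305.86, 203.82 and 145.57 TPM (2.10-fold lower, 1.94 to 2.28). BLA-DQB was 2.86-fold lower (2.41 to 3.42). DR alpha, DR beta and the second DQ beta gene were thus all lower in the library in which HLA-DQA1 and BOLA-DQB were highest.

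The same direction was seen for the genes that serve class II molecules inside the cell. CD74, the invariant chain that fills the groove and guides the molecule to the endosome, had 1619.94, 998.71 and 753.70 TPM (2.15-fold lower at +3 d than at −35 d, 2.07 to 2.23). HLA-DMA and HLA-DMB, the chains of the DM molecule that exchanges the invariant chain peptide, were 2.03-fold (1.86 to 2.22) and 3.04-fold (2.44 to 3.82) lower. BOLA-DOB, a chain of the DO molecule that restrains DM, had 21, 12 and 3 tags in the 3 libraries.

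In the stage I comparison, 3 of the 8 other genes were called lower, against 6.45% of all genes: HLA-DRA (2.01-fold, 1.91 to 2.11), HLA-DMB (2.30-fold, 1.88 to 2.84) and BOLA-DQA2, which rests on 3 tags at −7 d. In the stage II comparison, only BLA-DQB of the 8 was called lower (2.36-fold, 1.97 to 2.84), a count near the 10.4% of all genes. With TMM the calls of HLA-DRA and BOLA-DQA2 in stage I and of BLA-DQB in stage II were lost. HLA-DMB in stage I alone was called lower. Of all genes TMM called 3.90% lower in stage I and 4.90% in stage II, and for 8 genes these counts are near those shares. The median log2 ratio of the 10 genes was −0.64 in stage I, −0.45 in stage II and −1.27 in the full comparison. These medians include HLA-DQA1 and BOLA-DQB, chosen for being higher, which can only raise them. For the 7570 genes averaging 1 TPM or more, the medians were −0.19, −0.31 and −0.53. Most genes were thus lower by clean tags, and TMM scaling raised all log2 ratios by 0.19, 0.31 and 0.50. After it, the 8 other genes still had a ratio below 0 in each comparison, beside medians of all genes of −0.002, −0.002 and −0.03. Not all of these ratios were beyond counting error. BLA-DQB in stage I, at −0.09 with TMM, was within it. The intervals of BOLA-DOB in stage I and of BOLA-DQA2 in stage II took in 0 even by clean tags. HLA-DQA1 and BOLA-DQB, chosen for being higher, kept a ratio above 0, from which nothing is read.

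**Figure D3:**
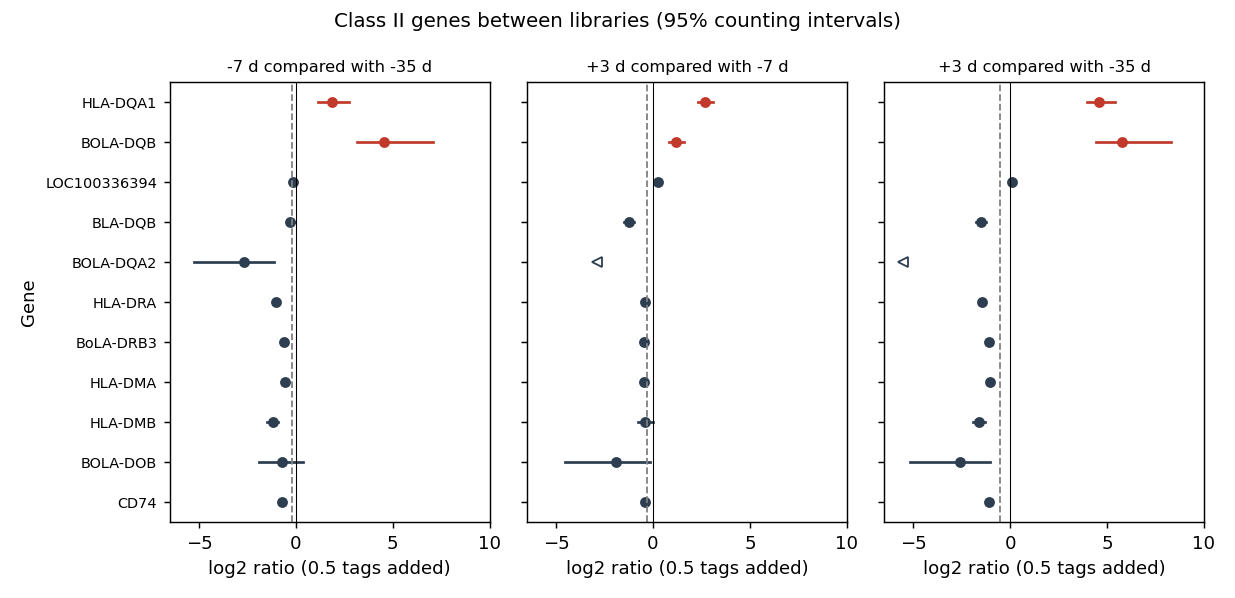
Log2 ratio with 0.5 tags added, in each comparison, for the 10 listed class II genes and LOC100336394, with 95% intervals of counting error as lines (no tags added), an open triangle without interval where a library had 0 tags, and the median of all genes as a dashed line. HLA-DQA1 and BOLA-DQB, in red, stand at 4.59 and 5.77 in the full comparison, the 8 other listed genes stand below 0, and LOC100336394 is near 0 at 0.08 by clean tags (0.57 with TMM).

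The balance of DQ and DR tags shifted as well. DQ accessions held 28.6% of the 9425 DQ and DR tags at −35 d (Wilson interval 27.7% to 29.6%), 40.5% of 5800 at −7 d (39.2% to 41.8%) and 53.5% of 5674 at +3 d (52.2% to 54.8%). DR tags summed to 1137.22, 617.17 and 451.09 TPM, a 2.52-fold lower level at +3 d than at −35 d (2.41 to 2.64), while the DQ sum differed by 1.14-fold. The log2 ratios of these sums depended on scaling. They were −1.33 for DR and 0.19 for DQ by clean tags, and −0.84 and 0.68 with TMM. Within DQ, HLA-DQA1 and BOLA-DQB together went from 0.778% to 6.05% and 20.6% of the tags. LOC100336394 held 2145 of 2699, 1805 of 2348 and 2234 of 3037 DQ tags. The balance with DR and the shares within DQ therefore depend on counting it. The DQ sum and the DQ share also include HLA-DQA1 and BOLA-DQB, which were chosen for being higher.

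Of the genes that control class II transcription, 5 of 8 listed symbols were found and none was called in any comparison, which for so few genes is near the shares over all genes and no result about the list. RFXANK, a subunit of the RFX complex that binds class II promoters, had 35.84, 36.83 and 27.37 TPM. The NF-Y subunits NFYB and NFYC had 26.21, 25.21 and 14.71 TPM and 20.80, 22.53 and 20.19 TPM. The class II transactivator, the master switch of these genes, is in the tables only as the predicted gene LOC508720, found after the values were seen, with 0 tags at −35 d and −7 d and 4 tags at +3 d, too few to compare.

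Of the proteins that make peptides for class II molecules, 10 of 11 were found, and 5 were called lower in the stage I comparison, against 6.45% of all genes: CTSS, CTSC, CTSD, CTSB and LGMN. With TMM 3 of them were (CTSS, CTSC and CTSD), against 3.90%. Cathepsin S (CTSS), which trims the invariant chain, had 432.33, 150.54 and 124.36 TPM. Cathepsin B (CTSB) had 671.92, 297.68 and 459.64 TPM. None was called in stage II by clean tags, and with TMM LGMN was called higher, 1 of 10 against 5.87% of all genes, which is no result about the list. CTSS and CTSC were called lower in the full comparison, and with TMM only CTSS was, counts near the 16.3% and 4.94% of all genes. Their median log2 ratio was −0.99 in stage I, 0.16 in stage II and −0.42 in the full comparison. The medians of all genes were −0.19, −0.31 and −0.53. TMM raised all ratios of the full comparison by 0.50, which turns the sign of the list's median there.

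Class I genes, which present peptides to CD8 T cells, had 17 accessions that averaged 1 TPM or more, from 18 of 20 symbols. Of these, 3 were called lower in stage I, 8 in stage II and 9 in the full comparison, against 6.45%, 10.4% and 16.3% of all genes. With TMM these counts were 1, 2 and 4, against 3.90%, 4.90% and 4.94%. None was called higher by clean tags, and with TMM PSMB10, a subunit of the immunoproteasome, was called higher in stage I, where TMM called 4.22% of all genes higher. Neither count among 17 genes is a result about the list. BOLA-N, a class I heavy chain, had 264.61, 109.60 and 59.87 TPM. The light chain gene B2M had 4209.03, 4366.17 and 2285.39 TPM and was not called.

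Interferon gamma, the best known inducer of class II genes, was itself near the limit of detection, with IFNG at 5, 4 and 0 tags. Of the 7 response genes that averaged 1 TPM or more, 3 were called lower in stage II, against 10.4% of all genes: CXCL10, GBP5 and IDO1. With TMM CXCL10 and GBP5 were, against 4.90%. In the full comparison CXCL10 and GBP5 were called lower, against 16.3%, and with TMM only CXCL10 was, against 4.94%. None was called higher, which for 7 genes is near the share over all genes. GBP4 had 14, 2 and 14 tags, 6.70-fold more in stage II (interval 1.54 to 60.7), and was not called. CXCL10, a chemokine that interferon gamma induces, had 92.99, 68.48 and 26.34 TPM. Among genes of T cell costimulation, CD40 had 11.67, 16.63 and 12.15 TPM, CD86 13.02, 9.30 and 9.92 TPM, and CD83 5.41, 8.05 and 5.99 TPM, and none was called, which for 3 genes is no result about the list.

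Cells that make class II molecules were followed by their marker genes. B cell markers were scarce: 3 of 10 symbols were found, CD79B and PAX5 were not among them, and their sum was 18.1, 15.2 and 14.9 TPM. CD79A, the most abundant, had 10.99, 7.51 and 9.92 TPM. Plasma cell markers, 2 of 7 found, summed to 287, 153 and 163 TPM, nearly all from IGJ, the joining chain of secreted antibodies. Dendritic cell markers, 6 of 13 symbols found, summed to 155, 108 and 82.8 TPM with FSCN1 the most abundant (88.94, 68.83 and 55.42 TPM), and FLT3, XCR1 and CLEC9A were not found. CD1E, a CD1 molecule of dendritic cells, had 14.03, 3.58 and 3.42 TPM and was called lower in stage I and in the full comparison, by clean tags and with TMM. IRF8, a transcription factor of dendritic and other myeloid cells, had 44.81, 30.57 and 16.59 TPM and was called lower in the full comparison by clean tags but not with TMM. These are 1 and 2 of 6 genes by clean tags, against 6.45% and 16.3% of all genes. With TMM they are 1 of 6 in each, against 3.90% and 4.94%. None of the 3 B cell and 2 plasma cell markers was called, by clean tags or with TMM, which for so few genes is no result about these lists.

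Macrophage and monocyte markers, 11 of 14 symbols found, summed to 369, 269 and 487 TPM. The most abundant, C1QB, a chain of complement C1q, had 104.83, 99.23 and 196.38 TPM. Of the 10 accessions that averaged 1 TPM or more, 4 were called lower in stage I, by clean tags and with TMM, against 6.45% and 3.90% of all genes. In stage II, CSF1R, CD163 and CD14 were called higher, against 3.12% of all genes, and all 10 had a ratio above 0, against 33.2% of the 7570 genes. Shares above 0, here and below, are by clean tags. With TMM the median log2 ratio of all genes was −0.002 in stage II and −0.03 in the full comparison, so that more genes lay above 0. In the full comparison 6 of the 10 had a ratio above 0, against 24.3%, CD163 and CD14 were called higher and CYBB, a subunit of the phagocyte oxidase, was called lower, against 2.33% and 16.3% of all genes. With TMM C1QB was also called higher in stage II and in the full comparison. That made 4 and 3 of 10 called higher, against 5.87% and 6.23% of all genes with TMM. CYBB was no longer called in the full comparison, where TMM called 4.94% of all genes lower. CD163, a scavenger receptor, had 7.78, 1.97 and 19.84 TPM, and CD14, a receptor for bacterial lipopolysaccharide, had 2.87, 4.29 and 19.67 TPM. CYBB had 24.52, 6.44 and 10.09 TPM, CD68 5.92, 0.89 and 2.05 TPM, and AIF1 51.57, 28.78 and 38.15 TPM, all highest at −35 d by clean tags. TMM raised log2 ratios of the full comparison by 0.50, which turns that of AIF1 above 0 but not those of CYBB and CD68. The higher sum at +3 d than at −35 d was thus not common to all markers, and C1QB and C1QA (98.91, 94.22 and 126.24 TPM) made up much of it. The summed level was highest at +3 d, as for HLA-DQA1 and BOLA-DQB, but lowest at −7 d, where both DQ genes were above their level at −35 d. The part of these and the other marked cells in the DQ differences was not tested.

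T cell markers, 11 of 12 found, summed to 249, 153 and 152 TPM, with CD3E the most abundant (48.53, 44.34 and 36.44 TPM). LCK, CD3G and CD8B were called lower in stage I, and CD3D, CD3G and CD8B in the full comparison, where with TMM only CD8B was. Of all genes 6.45% were called lower in stage I and 16.3% in the full comparison, and 4.94% in the latter with TMM. In stage II 5 of the 11 had a ratio above 0, against 33.2% of the 7570 genes, and CD8A, a chain of the CD8 coreceptor, was called higher (17.75, 9.48 and 20.01 TPM), by clean tags and with TMM, 1 of 11 against 3.12% and 5.87% of all genes. Luminal epithelial markers, 6 of 8 found, summed to 1172, 852 and 600 TPM. EPCAM had 497.77, 293.03 and 210.24 TPM, and KRT18 and KRT19 were not found. KRT8, a keratin of luminal cells, had 296.56, 156.98 and 163.71 TPM, and ELF5, a transcription factor of secretory cells, had 271.20, 352.93 and 155.15 TPM. Of the 6 markers, CDH1 and CLDN4 were called lower in stage I, ELF5 in stage II, and CDH1 and EPCAM in the full comparison, and 4 had a ratio above 0 in stage II, against 33.2%. The shares of all genes called lower were 6.45%, 10.4% and 16.3%, beside counts of 2, 1 and 2 of 6. With TMM CDH1 in stage I was the only one of these calls left, 1 of 6 against 3.90% of all genes. In stage II and the full comparison TMM called 4.90% and 4.94% of all genes lower. Epithelial markers were thus present in every library, and the macrophage sum was higher at +3 d than at −35 d while the plasma cell, dendritic cell, T cell and epithelial sums were lower, by clean tags and with TMM. The B cell sum rested on 107 and 87 tags, a difference within counting error whose log2 ratio was −0.28 by clean tags and 0.22 with TMM.

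**Figure D4:**
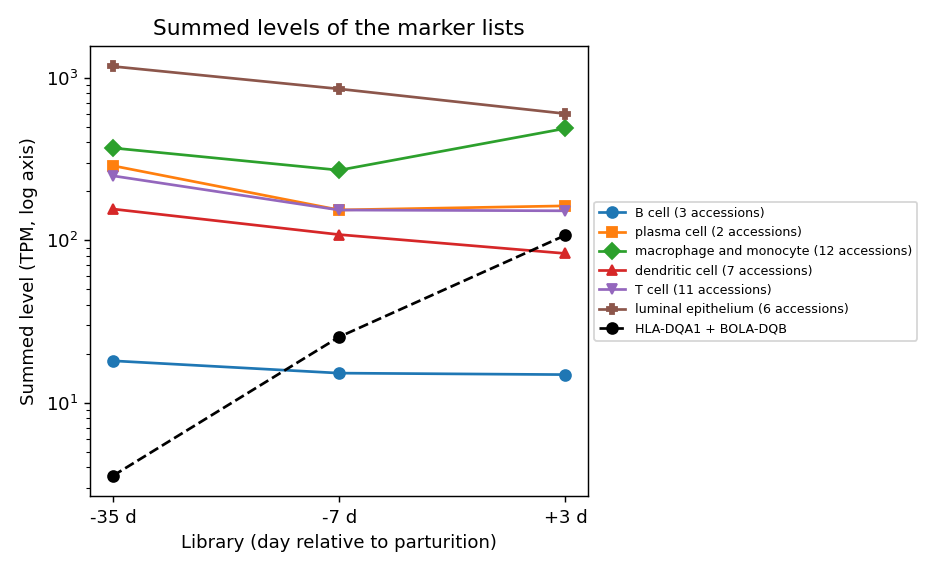
Summed level in TPM on a log axis against library for 6 lists of marker genes and, dashed in black, for HLA-DQA1 and BOLA-DQB together, with 1 pool per point and no error bars. The sum of both DQ genes goes from 3.55 to 107.26 TPM, while plasma cell, dendritic cell, T cell and epithelial sums are lower at +3 d than at −35 d, the B cell sum of 18.1 and 14.9 TPM differs by less than counting error and turns to higher with TMM, and the macrophage sum goes from 369 to 487 TPM.

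Genes were also ranked by how much their course over the 3 libraries was like that of each DQ gene. The measure was the distance between points whose coordinates are the log2 ratios of stage I and stage II, over the same 5902 genes as the ranks. The nearest to HLA-DQA1 were CIDEA (distance 0.388), ACTG2 (0.865), RNASE1 (0.865), GP2 (0.960) and COL8A1 (0.991). CIDEA, a lipid droplet protein of fat and lactating mammary cells, had 5, 24 and 186 tags. ACTG2, the smooth muscle gamma actin, had 132, 332 and 1372 tags, and RNASE1, a secreted ribonuclease, had 115, 341 and 1307. GP2, a membrane glycoprotein of secretory granules, had 9, 38 and 501 tags, and COL8A1, a collagen chain, had 74, 133 and 1076.

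The nearest to BOLA-DQB were FABP3 (distance 0.624), PAEP (0.930), CSN2 (1.26), BTN1A1 (1.33) and CSN1S1 (1.77). Of these, FABP3 binds fatty acids, PAEP is beta-lactoglobulin, CSN2 and CSN1S1 are beta and alpha s1 casein, and BTN1A1 coats the milk fat globule. FABP3 had 9, 259 and 915 tags, close to the course of 3, 78 and 188 tags of BOLA-DQB at a higher level. CSN2 had 4349, 69894 and 376839 tags. With 3 libraries and 3 tags of BOLA-DQB at −35 d, such distances are a description of these pools. The nearest 5 genes of one DQ gene were not among the nearest 5 of the other. Sets of 5 among 5902 genes rarely share a member, so nothing is read from this.

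**Figure D5:**
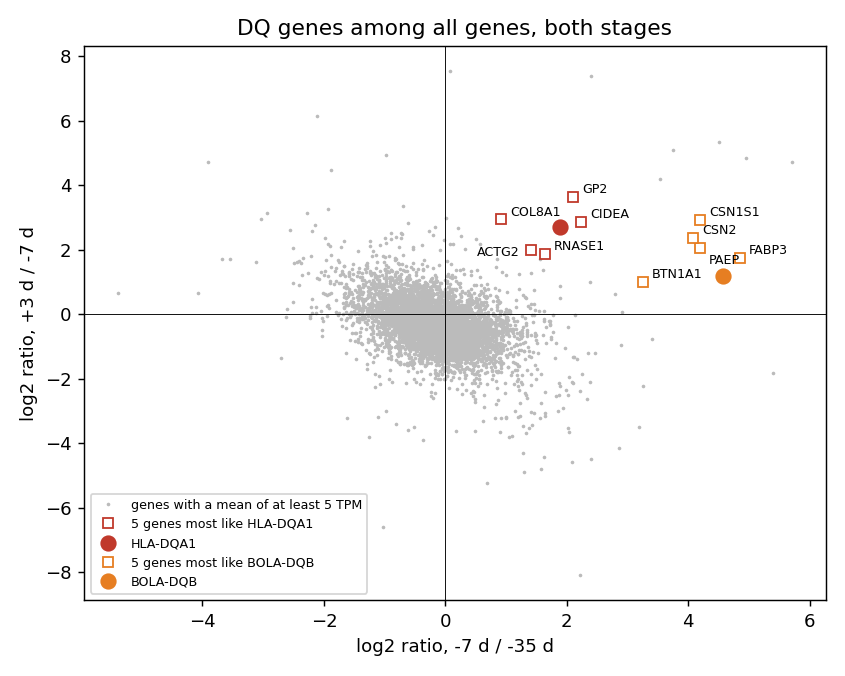
Log2 ratio of +3 d to −7 d against log2 ratio of −7 d to −35 d, with 0.5 tags added, for the 5902 genes averaging 5 TPM or more (grey points). HLA-DQA1 (1.88 and 2.70) and BOLA-DQB (4.57 and 1.20) are filled circles apart from the bulk of genes, and open squares mark the 5 genes nearest to each.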

How the data were processed

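Clean tags are what the authors kept after their quality filters, and each had at least 2 copies in its library. The authors matched clean tags (CATG and 17 bases) to bovine transcripts of UMD 3.1 with at most 1 mismatch. Deposited counts are copies of each clean tag and unambiguous clean tags per gene. The deposited TPM values were made by the authors from these counts and the total of clean tags; recomputed values differed by at most 0.005 TPM. Genes absent from the table of a library counted as 0 tags there.

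The symbol was the last name in brackets of the description; 7905 of 9154 accessions also matched ARS-UCD2.0, used for names and gene order. Genes and lists were chosen with earlier results of these data known. Named genes were both DQ genes, the class II genes found, the 3 most abundant and the called members of other lists, and the 5 genes nearest to each DQ gene. IFNG, GBP4, CD68, CD3D, CDH1, AIF1, LOC100336394, LOC508720 and the DQ and DR sums and shares were chosen after their values were seen. In the Audic-Claverie test the smaller tail was multiplied by 2, and 0 TPM was set to 0.01 TPM; with 1 pool per time point its p-values compare libraries. List medians used members averaging 1 TPM or more. The call procedure was tested on simulated data, and the outcome is not reported here. The deposited summary of tag mapping was not used. Values of some list members are not reported here. Computations ran in R 4.3.3 (edgeR 4.0.16, DESeq2 1.42.0) and Python 3.11.15 (scipy 1.17.1, pandas 2.3.3, numpy 2.4.6, matplotlib 3.10.9). Alternatives in scaling, test, thresholds and filters are given with the closing observations.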

Additional observations from a re-analysis of the deposited data

How the results depend on the processing

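With TMM scaling, DESeq2's size factors, totals without the 5 genes over 1% of a library, or no tags added, the log2 ratios of HLA-DQA1 and BOLA-DQB stayed above 0 and within their counting intervals in every comparison. The scalings moved all genes alike, by at most 0.52, and both genes were chosen for being higher. Nothing is therefore read from their ratios staying above 0. Counts of class II genes called lower in stage I went from 3 to 1 with TMM, size factors or a 3-fold threshold, and to 0 with edgeR's exact test at an assumed coefficient of variation of 0.2. In stage II the count went from 1 to 0 with TMM, size factors, totals without the 5 genes, the 3-fold threshold or the exact test. In the full comparison it went from 8 to 3 with TMM, size factors or the 3-fold threshold, to 4 with totals without the 5 genes and to 1 with the exact test. Class II genes called higher went from 2 to 1 with the exact test in each stage (BOLA-DQB in stage I, HLA-DQA1 in stage II) and, in stage II, with the 3-fold threshold. These 2 are the genes chosen for being higher, so nothing is read from their calls under any setting. The median log2 ratio of the list, both chosen genes included, was −0.45 in stage I with TMM or size factors. In stage II it was −0.14 with TMM, −0.13 with size factors and −0.14 with totals without the 5 genes. In the full comparison it was −0.78 with TMM, −0.76 with size factors, −0.91 with totals without the 5 genes and −1.09 over members averaging 5 TPM or more.

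Over all genes, TMM changed the genes called higher and lower from 235 and 578 to 378 and 350 in stage I, from 274 and 915 to 516 and 430 in stage II, and from 209 and 1463 to 560 and 444 in the full comparison. Size factors gave 378 and 348, 524 and 413, and 572 and 420. Totals without the 5 genes gave 517 and 430 in stage II and 412 and 627 in the full comparison. The 3-fold threshold left 97 and 220, 128 and 312, and 125 and 534, and the exact test 27 and 27, 65 and 95, and 54 and 102. Where TMM, a choice made for the other lists after seeing the data, changed their calls, this is given beside them. Without LOC100336394, a choice made after seeing the data, HLA-DQA1 held 43.9%, 95.5% and 100% of the DQ alpha tags. The exact test's assumed spread and the scalings change calls by their construction. The alternatives that select tags of the DQ genes were not run, because their tags could not be matched. No paired analysis was possible because each time point has 1 pool. BOLA-DQB at −35 d and BOLA-DQA2 at −7 d rest on 3 tags each.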
